A study of Oncorhynchus mykiss with 12 samples.

Results

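Liver small RNA from adult wild-type rainbow trout (Oncorhynchus mykiss, strain Walbaum per the labels) refed a high-carbohydrate meal (highCHO, fish 38, 45, 49 and 50) was compared with that of fish refed a meal without carbohydrate (noCHO, fish 20, 21, 31 and 33). These 8 livers are all the refed fish among 12. The other 4 (fasted, fish 7, 8, 10 and 13) had been without food for 4 days and are given as a reference level. Each fish gave 1 library of inserts of 15 to 50 nt. All miRNA sequences that passed a filter on low counts were compared, 340 of the 1696 listed, of which 291 carry known miRNA names and 49 are predicted candidates (names starting in PC). What else differed between the meals is not given in the sources used here, which give neither the composition of the meals, nor their size, nor the time between meal and sampling. The contrast is therefore between the 2 meals as fed, and it asks whether the carbohydrate in a meal goes with other miRNA levels in the liver of refed fish.

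A miRNA guides a silencing complex to messenger RNAs by pairing mainly through its seed, bases 2 to 8 from its 5′ end, so sequences with one seed can share targets. Trout is a carnivorous fish in which a carbohydrate-rich meal causes prolonged hyperglycaemia. miR-122 is the dominant miRNA of vertebrate hepatocytes, and in mammals it supports the expression of genes of cholesterol and fatty acid synthesis.

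Estimated miRNA counts per library ranged from 197684 (highCHO fish 49) to 3057706 (noCHO fish 33). Some libraries stood apart from their group. highCHO fish 38 held high levels of pancreas miRNAs, all highCHO libraries held more inserts under 15 nt than any noCHO library, and the noCHO libraries were divided between 2 sets of which the second holds all highCHO libraries. Their values, and the results without these libraries or within the second set, are given after the sequences.

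Levels are given as CPM, a sequence's count relative to the miRNA total of its library, after scaling by trimmed mean of M-values (TMM). The test was edgeR's quasi-likelihood fit over the 340 sequences with Benjamini-Hochberg adjustment and a threshold of 0.05. After the high-carbohydrate meal 8 sequences passed (2.35% of those tested), 4 higher (1.18%) and 4 lower (1.18%). The 8 sequences are printed because every call in the comparison rests on them. They are given 5′ to 3′ as deposited, with T for U and the seed in capitals. The prefix of a name is the species matched by the authors, and the marks after it are their notes on length and base differences.
PC-5p-219_12291: cCGTGGACgttcccgtgg
ssa-miR-145-3p_L+2R-1: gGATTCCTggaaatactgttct
fru-miR-200a_R-1: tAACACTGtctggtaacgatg
dre-miR-27b-3p_R-1: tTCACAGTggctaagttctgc
fru-miR-152: tCAGTGCAtaacagaactttgt
dre-miR-19c-3p_1ss23GT: tGTGCAAAtccatgcaaaactct
dre-miR-722_L-2: tTTTGCAGaaacgtttcagatt
dre-miR-199-3p_L-1: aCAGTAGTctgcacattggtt
No seed occurs in more than 1 of the 8. The first, a predicted candidate of 18 nt with no known name, is the shortest, and the other 7 have 21 to 23 nt. The noCHO and highCHO ranges did not overlap for any of the 8, against 32 of the 340 tested sequences (9.41%) with ranges apart, 13 higher and 19 lower. The 8 were picked by a test on these same levels, so their separate ranges are not further evidence for them.

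**Figure D1:**
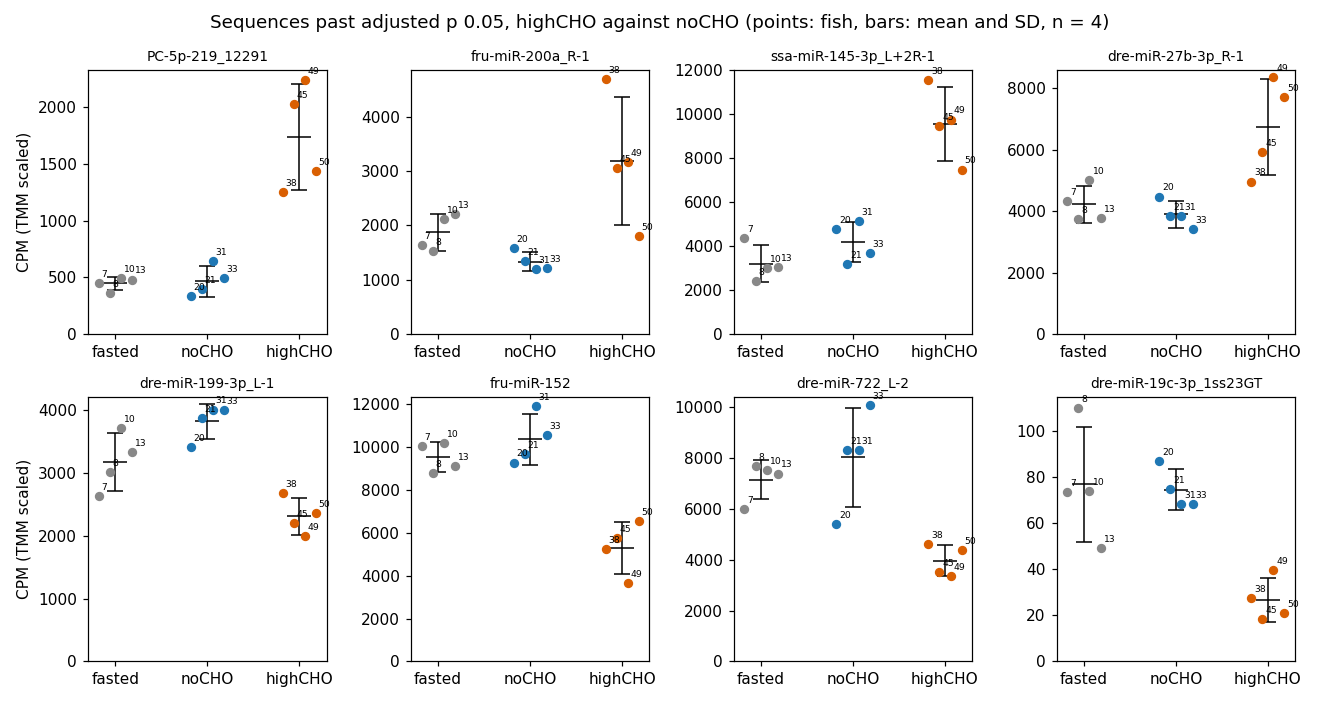
TMM-scaled CPM of the 8 sequences past adjusted p 0.05 in each fish (points, with fish numbers) of the fasted, noCHO and highCHO groups, with mean and SD (n = 4); the vertical axes start at 0. In all 8 panels the highCHO fish lie apart from the noCHO fish.

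The largest rise among the passing sequences was that of the candidate PC-5p-219_12291. Its level was 333, 397, 644 and 492 CPM in noCHO fish 20, 21, 31 and 33, and 1255, 2026, 2237 and 1436 CPM in highCHO fish 38, 45, 49 and 50. Every highCHO fish thus lay above every noCHO fish and above the fasted fish, at 364 to 492 CPM. Mean levels were 466 ± 135 and 1739 ± 468 CPM (SD, n = 4 each), a 3.72-fold rise (log2 fold change 1.90, SE 0.25, edgeR adjusted p = 0.00186). The candidate has no name in the deposited table beyond its number, and its origin among small RNAs was not tested.

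The 3p arm of miR-145 also rose. miR-145 is transcribed with miR-143 in vertebrates and is typical of smooth muscle. ssa-miR-145-3p_L+2R-1 stood at 4767, 3181, 5135 and 3672 CPM in the noCHO fish and at 11559.6, 9444, 9750.0 and 7477 CPM in the highCHO fish, in the same order of fish. The lowest highCHO value exceeded the highest noCHO value and the fasted range of 2424 to 4370.3 CPM. The means of 4189 ± 915 and 9558 ± 1672 CPM differed 2.28-fold (log2 fold change 1.19, SE 0.22, edgeR adjusted p = 0.0129). The opposite arm of the same hairpin family, ola-miR-145_L+1R+4, had means of 2466 and 2530.0 CPM (log2 fold change 0.038, SE 0.37, edgeR adjusted p = 0.971; 95% interval -0.79 to 0.86). Its highCHO values were 4723, 1179, 2529 and 1689 CPM, with fish 38 the highest, and without fish 38 its log2 fold change was -0.46. Whether the arms differ in their response was not tested. The partner ccr-miR-143 stood at 10122 to 12692 CPM in noCHO fish and at 26596, 11269, 12085 and 11839.8 CPM in highCHO fish, so only fish 38 left the noCHO range (log2 fold change 0.42, SE 0.25, edgeR adjusted p = 0.340).

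fru-miR-200a_R-1 belongs to the miR-200 family, which maintains epithelial character in vertebrates by repressing ZEB transcription factors. Its levels were 1586, 1344, 1195 and 1216 CPM in the noCHO fish and 4687, 3056, 3170.4 and 1808 CPM in the highCHO fish. The lowest highCHO fish, 50, lay inside the fasted range of 1520.1 to 2211 CPM and above all noCHO fish. The rise from 1335 ± 179.8 to 3180.3 ± 1179 CPM was 2.38-fold (log2 fold change 1.25, SE 0.25, edgeR adjusted p = 0.0178).

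Relatives of miR-200a are shown because they carry the other seed of the family.
fru-miR-200b_R+1: tAATACTGcctggtaatgatgat
dre-miR-429a: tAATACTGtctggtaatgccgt
dre-miR-429a, a member of the miR-200 group by sequence, did not pass. It stood at 11.3, 12.2, 37.7 and 49.5 CPM in the noCHO fish and 273, 155, 133 and 35.4 CPM in the highCHO fish, where fish 50 overlapped the noCHO fish (log2 fold change 2.40, SE 0.60, edgeR adjusted p = 0.0631). Counted from 1 at the 5′ end, dre-miR-429a differs from fru-miR-200a_R-1 by C4T, C17T, A19C and T20C over the shared length, and C4T lies in the seed. fru-miR-200b_R+1 reached 1896 CPM in fish 38 and 532, 424 and 282 CPM in the other highCHO fish, against 335 to 501 CPM in noCHO fish (log2 fold change 0.96, SE 0.49, edgeR adjusted p = 0.282). Summed over its 13 listed sequences, miR-200 passed the test on family sums (log2 fold change 1.27, SE 0.30, edgeR adjusted p = 0.0408), in which 3 of 101 families passed (2.97%). This family call held in 2 of 8 fits that each left out 1 refed library, those without highCHO fish 38 or 50. Without fish 38 the log2 fold change of fru-miR-200a_R-1 was 1.00 (adjusted p = 0.0213), so its call did not rest on that fish.

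dre-miR-27b-3p_R-1 rose by the smallest factor of the 4. In mouse and human liver cells miR-27b acts on genes of lipid metabolism. It stood at 4481, 3859.8, 3843 and 3432 CPM in the noCHO fish, 4968, 5939, 8366 and 7716 CPM in the highCHO fish and 3751 to 5028 CPM in fasted fish. highCHO fish 38 lay within the fasted range and the other 3 highCHO fish lay above it. The means, 3904 ± 433 and 6747 ± 1568 CPM, differed 1.73-fold (log2 fold change 0.79, SE 0.18, edgeR adjusted p = 0.0420). With 1 refed library left out it passed in 1 of 8 fits, that without highCHO fish 38. It was the sequence nearest the threshold from inside, and dre-miR-429a was the nearest from outside, at 0.0631.

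Other miR-27 members differ from it by few bases, and the division of shared reads between them is uncertain.
ccr-miR-27a: tTCACAGTggctaagttccgc
dre-miR-27d_R-1_2ss11CT20TG: tTCACAGTggttaagttctgc
ssa-miR-27d-5p: aGGACTTAgcacacatgtgaaca
Positions are counted from 1 at the 5′ end. ccr-miR-27a differs from dre-miR-27b-3p_R-1 by T19C and had a log2 fold change of 0.78 (SE 0.26, edgeR adjusted p = 0.119). dre-miR-27d_R-1_2ss11CT20TG differs by C11T, was more abundant in noCHO fish (7396 CPM), and had -0.037 (SE 0.27, edgeR adjusted p = 0.954), a value whose sign turned with the scaling. Of the 6 tested sequences with the seed of miR-27b, 4 had higher and 2 lower fitted levels. Of the 2 lower, dre-miR-27d_R-1_2ss11CT20TG was above 0 under median-ratio and sample-total scaling. The other, a miR-27d 3p sequence, had -0.78 (SE 0.36, edgeR adjusted p = 0.251). From the opposite arm, ssa-miR-27d-5p stood at 170.4, 74.2, 65.4 and 50.6 CPM in the noCHO fish and 114, 689.8, 672 and 187 CPM in the highCHO fish. highCHO fish 45 and 49 stood apart from the rest, fish 38 lay within the noCHO range, and the difference did not pass (log2 fold change 2.20, SE 0.57, edgeR adjusted p = 0.0631). Of the other tested 5p sequences, that of miR-27c had 1.64 (SE 0.52, edgeR adjusted p = 0.109). That of miR-27b had -0.39 (SE 0.26, edgeR adjusted p = 0.386). The miR-27 family sum did not pass either (log2 fold change 0.37, SE 0.21, edgeR adjusted p = 0.288).

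Among the 4 sequences that fell, fru-miR-152 was the most abundant. Together with miR-148 it forms a family that represses the DNA methyltransferase DNMT1 in mammalian cells. Its levels were 9276, 9667, 11926 and 10550.0 CPM in the noCHO fish, 5245, 5770.5, 3675 and 6537 CPM in the highCHO fish and 8797 to 10183 CPM in fasted fish. All highCHO fish lay below all fish of both other groups. The fall from 10355 ± 1175 to 5307 ± 1211 CPM had a log2 fold change of -0.96 (SE 0.17, edgeR adjusted p = 0.0129). The family sum of miR-152 passed as well (log2 fold change -0.86, SE 0.18, edgeR adjusted p = 0.0408), and in 3 of 8 fits without 1 refed library, those without noCHO fish 20 or highCHO fish 38 or 50. fru-miR-152 itself did not pass without noCHO fish 21 (adjusted p = 0.0611 by edgeR) or 31 (0.0574).

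miR-148 carries the same seed as miR-152 and is among the most abundant liver miRNAs here.
fru-miR-152: tCAGTGCAtaacagaactttgt
dre-miR-148_R-1: tCAGTGCAttacagaactttg
ola-miR-148_R+1: tCAGTGCAttacagaacttta
Over the shared length, counted from the 5′ end, dre-miR-148_R-1 differs from fru-miR-152 by A10T, and ola-miR-148_R+1 by A10T and G21A. dre-miR-148_R-1 stood at 35438, 34428, 26047 and 33608 CPM in the noCHO fish and 28713, 37756, 9626 and 29104 CPM in the highCHO fish, the lowest being fish 49 (log2 fold change -0.30, SE 0.33, edgeR adjusted p = 0.584). Without fish 49 its log2 fold change was 0.051. ola-miR-148_R+1 stood at 2676, 2599, 3765 and 2143 CPM in the noCHO fish and at 2202, 1034, 451 and 1072 CPM in the highCHO fish (log2 fold change -1.23, SE 0.41, edgeR adjusted p = 0.119). Fish 38 reached the noCHO range, and the other 3 highCHO fish lay below it. All 3 tested sequences with this seed had lower fitted levels, 1 past the threshold. The opposite arm, ssa-miR-152-5p_L-1, had 0.27 (SE 0.33, edgeR adjusted p = 0.629).

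dre-miR-19c-3p_1ss23GT had the largest fall. miR-19 is a member of the miR-17-92 cluster. Its levels were 86.9, 74.9, 68.4 and 68.1 CPM in the noCHO fish, 27.6, 18.5, 39.8 and 21.0 CPM in the highCHO fish and 49.3 to 110.1 CPM in fasted fish. No highCHO fish reached the level of any other fish. The means were 74.6 ± 8.79 and 26.7 ± 9.52 CPM, a 2.92-fold difference (log2 fold change -1.55, SE 0.29, edgeR adjusted p = 0.0129). In the shallowest library, highCHO fish 49, 1 CPM before TMM scaling was worth 0.198 counts (TMM factor 1.15). The value of dre-miR-19c-3p_1ss23GT there therefore rests on few reads.

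Its relatives show how closely the counted members resemble each other.
ssa-miR-19c-3p_R-1: tGTGCAAAtccatgcaaaact
ssa-miR-19d-3p_R-1: tGTGCAAAcccaagcaaaact
dre-miR-19a-3p_L+1R-2: tTGTGCAAatctatgcaaaact
ssa-miR-19c-3p_R-1 has no base difference from dre-miR-19c-3p_1ss23GT over its length and ends 2 bases earlier. It stood at 189.5, 148, 246 and 240.4 CPM in the noCHO fish and 123, 132, 115 and 99.4 CPM in the highCHO fish, without overlap, and did not pass (log2 fold change -0.81, SE 0.22, edgeR adjusted p = 0.0649). dre-miR-19a-3p_L+1R-2, whose extra 5′ base moves bases 2 to 8 by 1, stood at 539, 316, 603 and 669 CPM in the noCHO fish and 284, 262, 327 and 239.8 CPM in the highCHO fish (log2 fold change -0.94, SE 0.25, edgeR adjusted p = 0.0649). Only noCHO fish 21 came within the highCHO range. dre-miR-19d-3p_1ss13TA had -0.91 (adjusted p = 0.109 by edgeR). ssa-miR-19d-3p_R-1, the same sequence without the last 2 bases, had -0.02 (SE 0.28, edgeR adjusted p = 0.982), with a sign that turned with the scaling. All 5 tested sequences with the seed of miR-19c had fitted log2 fold changes below 0 in the test as run, with 1 past the threshold, and ssa-miR-19d-3p_R-1 was above 0 under median-ratio scaling. Of the other 2 family members, which share bases 2 to 8, dre-miR-19a-3p_L+1R-2 was the lower in highCHO fish and ola-mir-19a-p3 the higher. ola-mir-19a-p3 stood at 3.38, 1.53, 0.991 and 2.91 CPM in the noCHO fish and 2.61, 19.6, 0 and 19.1 CPM in the highCHO fish, with overlap (log2 fold change 2.36, SE 1.08, edgeR adjusted p = 0.251). The family sum did not pass (log2 fold change -0.53, SE 0.18, edgeR adjusted p = 0.110).

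dre-miR-722_L-2 matches a miRNA known from fish, which in zebrafish lowers neutrophil migration by repressing Rac2. The mark L-2 notes a 5′ end shorter than that of the matched zebrafish sequence, so the bases 2 to 8 printed here are shifted from its own. Whether dre-miR-722_L-2 shares targets with it was not tested. It stood at 5399.6, 8311, 8305 and 10059 CPM in the noCHO fish, 4604, 3498, 3369 and 4381 CPM in the highCHO fish and 6002 to 7691 CPM in fasted fish. noCHO fish 20 was the nearest to the highCHO fish, and no fish of either other group reached down to them. The fall from 8019 ± 1931 to 3963 ± 620.4 CPM had a log2 fold change of -1.02 (SE 0.19, edgeR adjusted p = 0.0129). The family sum of miR-722 passed (log2 fold change -0.94, SE 0.21, edgeR adjusted p = 0.0408), although in these sums noCHO fish 20 overlapped highCHO fish 38, and it passed in 3 of 8 fits without 1 refed library. dre-miR-722_L-2 itself did not pass without noCHO fish 21, 31 or 33 or highCHO fish 49. Its opposite arm, ssa-miR-722-5p_L-1R+1, had -0.79 (SE 0.69, edgeR adjusted p = 0.493), with noCHO fish 20 at 6.77 CPM against 202 to 292 CPM in the other noCHO fish.

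dre-miR-199-3p_L-1 comes from a hairpin whose 5p arm was the fourth most abundant sequence over the 12 livers. miR-199 is typical of mesenchymal cells and, in human and mouse, is also abundant in liver. The 3p arm stood at 3407, 3874, 4007 and 3993 CPM in the noCHO fish, 2680.2, 2195, 1989.8 and 2364 CPM in the highCHO fish and 2634 to 3718 CPM in fasted fish. The highCHO and fasted ranges overlapped, while the highCHO and noCHO ranges did not. The means were 3820.3 ± 282 and 2307 ± 292 CPM (log2 fold change -0.73, SE 0.15, edgeR adjusted p = 0.0194). The 5p arm, dre-miR-199-5p, had means of 35678 and 41329.6 CPM (log2 fold change 0.21, SE 0.21, edgeR adjusted p = 0.563). Each of the 4 tested 3p sequences had a lower and each of the 2 tested 5p sequences a higher fitted level. Over the 43 families in which both arms were assigned and tested, the more abundant arm had 62 of 115 sequences higher (median log2 fold change 0.078). The less abundant arm had 40 of 83 higher (median -0.01). No arm was assigned to 32 known tested sequences, and miR-152 and miR-722 are not among the 43 families.

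**Figure D2:**
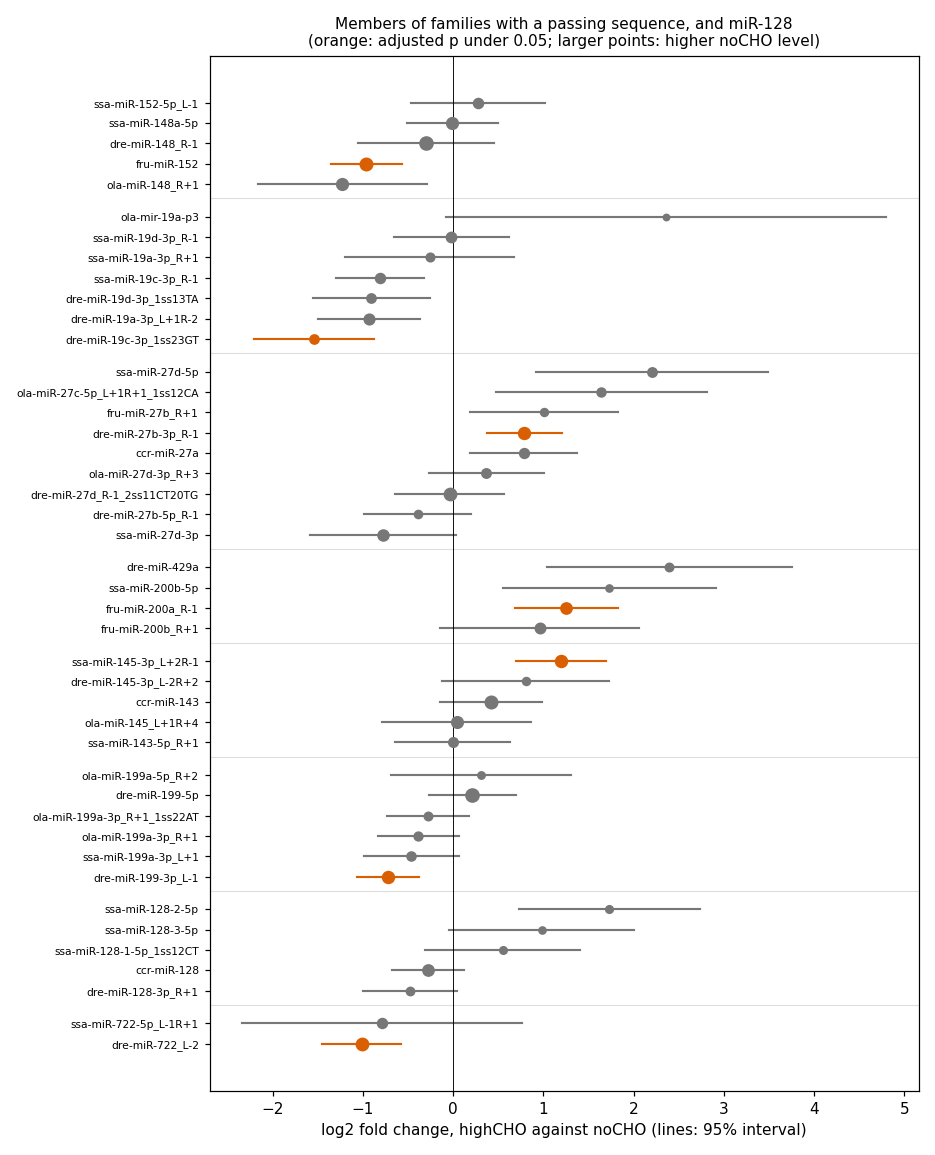
Fitted log2 fold change of highCHO against noCHO for every tested member of the families of the 7 passing known sequences, with miR-143, miR-148, miR-429 and miR-128 beside them. Points show the estimate, lines its 95% interval, orange marks adjusted p under 0.05, and larger points a higher noCHO level. Values lay on both sides of 0 in the miR-19, miR-27, miR-199 and miR-128 families and among miR-152 and miR-148. Among miR-145 and miR-143 this rested on ssa-miR-143-5p_R+1 (-0.0086), which was above 0 under median-ratio and sample-total scaling. Those of miR-200 and miR-429 were all above 0 and those of miR-722 below.

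For 5 of the 8 sequences the fasted range overlapped the noCHO range and lay apart from the highCHO range. The exceptions were fru-miR-200a_R-1, dre-miR-27b-3p_R-1 and dre-miR-199-3p_L-1, whose fasted fish overlapped the highCHO fish. All fasted libraries fell in the first of the 2 library sets and all highCHO libraries in the second. Inserts under 15 nt were 7.63 to 11.6% of adapter-containing reads in fasted and 14.2 to 32.2% in highCHO libraries. The distance between fasted and highCHO levels cannot be told apart from these library differences. All 12 livers were in one fit, so the fasted fish entered the estimate of spread, while their values are given as levels only. With the refed libraries alone 4 of the 8 passed. fru-miR-152, dre-miR-722_L-2, dre-miR-199-3p_L-1 and dre-miR-27b-3p_R-1 did not (edgeR adjusted p = 0.111 each), and no family sum passed.

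Just outside the threshold on the higher side, besides dre-miR-429a and ssa-miR-27d-5p, were the minor arms ssa-miR-128-2-5p and dre-miR-25-5p_2ss18GA19CT, both at low levels, and a candidate. ssa-miR-128-2-5p stood at 11.3, 13.0, 7.43 and 9.83 CPM in the noCHO fish and 21.9, 48.5, 8.84 and 49.7 CPM in the highCHO fish (log2 fold change 1.73, SE 0.44, edgeR adjusted p = 0.0631). highCHO fish 49 lay inside the noCHO range. In that library, the shallowest, levels as low as those of these minor arms rest on few reads. The 3 tested 5p sequences of miR-128 (ssa-miR-128-2-5p, ssa-miR-128-3-5p and ssa-miR-128-1-5p_1ss12CT) share one seed and had log2 fold changes, in this order, of 1.73, 0.98 and 0.55, while the abundant 3p sequence ccr-miR-128, which acts on cholesterol transporters in mammals, had -0.28 (SE 0.17, edgeR adjusted p = 0.351). dre-miR-25-5p_2ss18GA19CT stood at 30.5, 21.4, 16.8 and 12.02 CPM in the noCHO fish and 58.9, 67.0, 22.1 and 50.6 CPM in the highCHO fish (log2 fold change 1.39, SE 0.39, edgeR adjusted p = 0.0776), and highCHO fish 49 again lay inside the noCHO range. The candidate PC-5p-1744_747 lay nearer the threshold, at 20.3, 16.1, 17.8 and 16.02 CPM in the noCHO fish and 1102, 27.7, 31.0 and 38.2 CPM in the highCHO fish (log2 fold change 4.12, SE 1.09, edgeR adjusted p = 0.0649). Its ranges did not overlap, and without fish 38, by far its highest, the log2 fold change was 0.89 (edgeR adjusted p = 0.0646). On the lower side, dre-miR-18b-5p_1ss11TC, another miR-17-92 relative, stood at 41.7, 44.4, 45.1 and 48.4 CPM in the noCHO fish and 31.8, 30.04, 22.1 and 24.8 CPM in the highCHO fish without overlap (log2 fold change -0.69, SE 0.20, edgeR adjusted p = 0.0899). ssa-miR-15a-5p_L-2R+1_1ss18GA, of the miR-15 and miR-16 group that restrains the cell cycle in mammals, stood at 730.0, 995, 665 and 634 CPM in the noCHO fish and 490.1, 410.2, 464 and 498 CPM in the highCHO fish, also without overlap (log2 fold change -0.70, SE 0.21, edgeR adjusted p = 0.0983). In all, 66 sequences (19.4%) had an unadjusted p under 0.05.

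**Figure D3:**
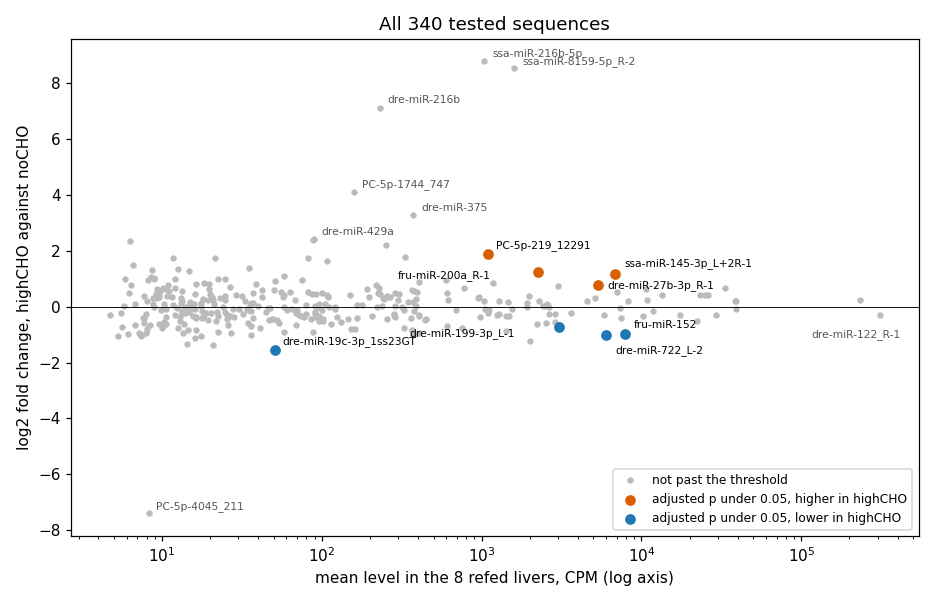
Fitted log2 fold change of highCHO against noCHO for the 340 tested sequences against their mean CPM over the 8 refed livers (log axis); coloured points have adjusted p under 0.05. Of the 8 passing sequences 7 lie above 1000 CPM, while the points with the highest fold changes, among them ssa-miR-216b-5p and ssa-miR-8159-5p_R-2, did not pass.

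The sequences that dominate the liver did not pass. dre-miR-122_R-1 stood at 435270.0, 292195, 310809 and 336227 CPM in the noCHO fish and 201586, 289155, 265626 and 355061 CPM in the highCHO fish, with overlap, and at 229417 to 270328 CPM in fasted fish (log2 fold change -0.31, SE 0.19, edgeR adjusted p = 0.340; 95% interval -0.73 to 0.11). As a share of estimated counts, miR-122 made up 33.0 ± 2.56% in noCHO and 26.3 ± 3.78% in highCHO fish (SD, n = 4; two-sided exact permutation p = 0.0571, adjusted 0.114 over 10 measures). It was the most abundant sequence in 7 of the 8 refed livers, highCHO fish 38 among them, and dre-miR-100-5p exceeded it in highCHO fish 45. This rank goes with the liver label but does not show whether other tissue was present. The 4 tested miR-122 sequences all had lower fitted levels, from -0.54 to -0.063 on the log2 scale. dre-miR-100-5p, second in abundance, spread from 110363 to 384706 CPM among highCHO fish (log2 fold change 0.26, SE 0.36, edgeR adjusted p = 0.676). The other 7 of the 10 most abundant sequences besides dre-miR-199-5p (dre-miR-30e-5p_R+2, dre-let-7a, ssa-miR-146a-5p, dre-miR-148_R-1, ssa-miR-30b-5p_R-4, ipu-miR-192 and fru-miR-21) had log2 fold changes from -0.51 to 0.68 and edgeR adjusted p from 0.280 to 0.815.

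Of a list of postprandial candidates in trout (miR-29, miR-33, miR-103, miR-107, miR-122 and miR-143), 16 sequences were tested. By edgeR 0 of 16 passed, against 2.35% of all tested (smallest adjusted p 0.137). DESeq2 gave an adjusted p for 200 of the 340 sequences and called 22 of them (11%), with 0 of 13 in this list. An unadjusted p under 0.05 was found by edgeR for 3 of these 16 sequences, against 19.4% of all. Their fitted levels were higher in 4 of 16, with a median log2 fold change of -0.17 against -0.004 over all 340; without fish 38 the list's median was -0.34. miR-29, which in rodents rises in insulin-resistant tissue, had 5 of 5 sequences lower, with a median of -0.77. Among them ssa-miR-29b-3p stood at 65.4, 85.7, 179 and 126 CPM in the noCHO fish and 76.1, 39.3, 61.9 and 67.8 CPM in the highCHO fish, with overlap (log2 fold change -0.90, SE 0.32, edgeR adjusted p = 0.144). miR-33, which lies within sterol regulatory genes in vertebrates, had 3 of 3 higher, from 0.054 to 0.38. The single tested sequences of miR-103 and miR-107, regulators of insulin sensitivity in mouse liver, both had -0.17.

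The counts of the next lists stand beside shares over all sequences of 2.35% passing by edgeR, 19.4% with an unadjusted p under 0.05 and 11% called by DESeq2. The wider glucose and insulin list (miR-26, miR-29, miR-103, miR-107, miR-143, miR-152, miR-181 and miR-802, the last without a tested sequence) had 7 of 25 sequences higher, a median of -0.17 and 1 call, the fall of fru-miR-152 (4 with an unadjusted p under 0.05, and 1 of 17 by DESeq2). Its most abundant member, ssa-miR-26a-5p, which in mouse liver improves insulin sensitivity, stood at 22227, 16218, 18473 and 21989 CPM in the noCHO fish and 19217, 27524, 28494 and 30879.9 CPM in the highCHO fish (log2 fold change 0.43, SE 0.17, edgeR adjusted p = 0.173). The lipid and cholesterol list had 24 of 37 higher, a median of 0.095 and 1 call, the rise of dre-miR-27b-3p_R-1 (8 with an unadjusted p under 0.05, and 5 of 19 by DESeq2, against 11% of all sequences). The hepatocyte list had 8 of 20 higher, a median of -0.058 and no call (5 with an unadjusted p under 0.05, and 1 of 16 by DESeq2). Without fish 38 it had 4 of 20 higher, a median of -0.34 and 1 call, in a fit in which 18 of 339 sequences passed. The miR-17-92 relatives had 8 of 24 higher, a median of -0.35 and 1 call, the fall of dre-miR-19c-3p_1ss23GT (10 with an unadjusted p under 0.05, and 4 of 18 by DESeq2). Within that list the miR-92 sequences ssa-miR-92a-3p (0.026) and ssa-miR-92b-3p (0.20), its 2 most abundant, were near 0 on the log2 scale. The let-7 list had 14 of 22 higher (median 0.18), and the miR-99, miR-100 and miR-125 list 8 of 10 (median 0.37). In the let-7 list 0 sequences passed by edgeR (3 with an unadjusted p under 0.05, and 1 of 15 by DESeq2), and in the other list 0 (1 with an unadjusted p under 0.05, and 1 of 8 by DESeq2). The 3 let-7 sequences include dre-let-7c-5p_1ss19GC (log2 fold change 0.86, SE 0.29, edgeR adjusted p = 0.119), whose share divides the libraries into the 2 sets. It stood at 451, 617, 938 and 1348 CPM in the noCHO fish and 1707, 1508, 1309 and 1555 CPM in the highCHO fish. fru-let-7e had -0.33 and fru-miR-125b_R-1 had 0.24. In the miR-125 family, ipu-miR-125a had 0.67 without overlap of the ranges (edgeR adjusted p = 0.0854). The stress and hypoxia list had 3 of 9 higher (median -0.21), with ssa-miR-21a-5p_R-3 at -0.62, fru-miR-21 at -0.51 and the minor arm ssa-miR-21a-3p at 1.33 (edgeR adjusted p = 0.107), and 0 calls (3 with an unadjusted p under 0.05, and 0 of 6 by DESeq2). The list of miRNAs described first in fish had 7 of 13 higher (median 0.089) and 1 call, dre-miR-722_L-2 (2 with an unadjusted p under 0.05, and 1 of 9 by DESeq2). It includes the 7 tested sequences of miR-462 and miR-731, of which 6 were higher. Of miR-2188, 1 of 2 sequences was higher, and all tested sequences of miR-722, miR-725 and miR-737 were lower.

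**Figure D4:**
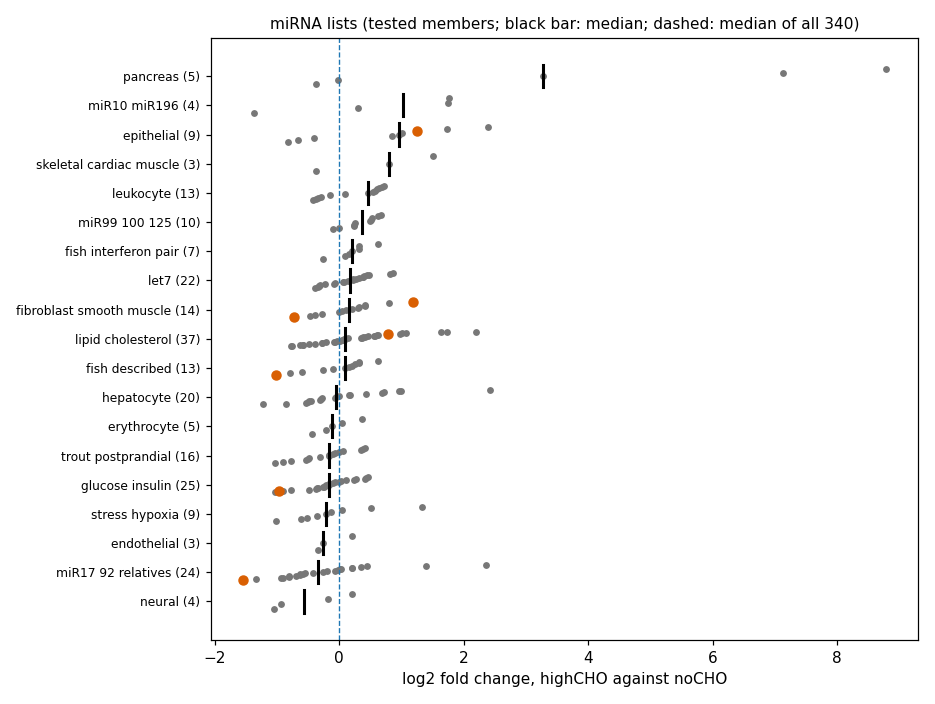
Fitted log2 fold change of highCHO against noCHO for each tested sequence of 19 miRNA lists (number tested in brackets); black bars are list medians, the dashed line the median of all 340 sequences and orange points adjusted p under 0.05. The pancreas list has the highest median, 3.28, which was -0.41 without highCHO fish 38, and none of its 5 sequences passed.

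Lists for other cell types were read as levels, since in bulk liver fewer cells of a type and less RNA per cell cannot be told apart. For comparison with their counts, 2.35% of all tested sequences passed by edgeR and 19.4% had an unadjusted p under 0.05. DESeq2 called 11% of the 200 sequences to which it gave an adjusted p. The fibroblast and smooth muscle list (miR-143, miR-145, miR-199 and miR-214) had 9 of 14 sequences higher, a median of 0.16, and both a rise (miR-145-3p) and a fall (miR-199-3p) (2 with an unadjusted p under 0.05, and 2 of 9 by DESeq2; without fish 38 7 of 14, median -0.12). Its summed level was 43720.2 to 63236 CPM in noCHO and 61940.3 to 77918 CPM in highCHO fish. The epithelial list had 6 of 9 higher, a median of 0.96 and 1 call (miR-200a), with summed levels of 1678 to 2029 CPM in noCHO and 2197 to 6962 CPM in highCHO fish (4 with an unadjusted p under 0.05, and 2 of 3 by DESeq2). Its highest sum and the level of its median member, fru-miR-200b_R+1, were set by fish 38. Without that fish the highCHO sums were 2197 to 3813 CPM, fru-miR-200b_R+1 had 0.021, and 5 of the 7 sequences then tested were higher (median 1.00). With all fish, the 3 lower sequences of this list were those of miR-203 (-0.82 to -0.41, median -0.66), 1 of them without overlap of the ranges. The leukocyte list had 8 of 13 higher (median 0.46), led by ssa-miR-146a-5p (0.68, adjusted p = 0.282 by edgeR) and ssa-miR-146d-5p (0.73). Its sums of 19432 to 47317 and 24038 to 58165 CPM overlapped through fish 38 alone, the other highCHO sums being 52078 to 58165 CPM. These sums were mostly miR-146, at 17231 to 44994 CPM in noCHO and 22063 to 56513 CPM in highCHO fish. Other leukocyte families went both ways. miR-142 had 0 of 3 sequences higher (-0.43 to -0.34) and miR-155 had -0.15, while miR-223 had 2 of 2 higher and miR-150 had 0.097. The erythrocyte list had 2 of 5 higher (median -0.12; dre-miR-451_R-1 -0.12, fru-miR-144_L+1R-1 0.36), with sums of 1487 to 3804 and 1789.8 to 3327 CPM. The endothelial list had 1 of 3 higher (median -0.26; ccr-miR-126-3p_L-1R+1 0.20, fru-miR-126 -0.26). The interferon-induced pair miR-462 and miR-731 had 6 of 7 higher (median 0.20), with ssa-miR-462a-5p at 0.20 and ssa-miR-731-5p at 0.31. The skeletal and cardiac muscle list had 2 of 3 higher (median 0.80), with sums of 107 to 342 and 84.4 to 252 CPM. In it dre-miR-499-5p_R-1 had -0.37 and dre-miR-1, the median, had 0.80. Among the highCHO fish dre-miR-1 was high in fish 38 alone and had -1.50 without it. The neural list had 1 of 4 higher (median -0.56; dre-miR-153a-3p -1.05, dre-miR-218a_R+1 -0.18). The miR-10 and miR-196 list had 3 of 4 higher (median 1.03), with dre-miR-10c-5p at 0.30 and dre-miR-10b-5p_R-1 at 1.76. dre-miR-10b-5p_R-1 was highest in fish 38 and had 0.90 without it, when the list's median was 0.39. By edgeR 0 sequences passed in the leukocyte list (0 with an unadjusted p under 0.05, and 0 of 9 by DESeq2), the miR-10 and miR-196 list (1 with an unadjusted p under 0.05, and 1 of 3 by DESeq2) and the interferon-induced pair (0 with an unadjusted p under 0.05, and 0 of 4 by DESeq2), and also 0 in the erythrocyte, endothelial, muscle and neural lists, each with 0 sequences at an unadjusted p under 0.05 and 0 by DESeq2, which gave an adjusted p for 4, 3, 2 and 0 of their sequences.

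highCHO fish 38 stood apart. The pancreas list (miR-7, miR-216, miR-217 and miR-375) summed to 12792 CPM in highCHO fish 38, against 172 CPM in the lowest highCHO fish, a highCHO median of 203 CPM, 188 to 239 CPM in noCHO and 152 to 337 CPM in fasted fish. ssa-miR-216b-5p, a miRNA of exocrine pancreas in vertebrates, stood at 8261, 9.24, 26.5 and 5.73 CPM in the highCHO fish and 19.2, 1.53, 0.991 and 1.09 CPM in the noCHO fish (log2 fold change 8.79, SE 2.56, edgeR adjusted p = 0.0901). dre-miR-375, of endocrine pancreas, stood at 2499.8, 68.2, 88.4 and 57.3 CPM in the highCHO fish and 44.0, 91.0, 77.3 and 68.1 CPM in the noCHO fish (log2 fold change 3.28, SE 1.102, edgeR adjusted p = 0.119). Without fish 38 their log2 fold changes were 1.27 and -0.021, so fish 38 decided both values. None of the 5 tested pancreas sequences, which include none of miR-217, passed by edgeR, against 2.35% of all tested. Of the 5, 3 had an unadjusted p under 0.05 (19.4% of all sequences), and DESeq2 called 0 of 1 (11% of all). ssa-miR-8159-5p_R-2 was likewise high in fish 38 alone, at 12706 CPM against at most 31.0 CPM in the other refed fish. Fish 38 was also the highest in PC-5p-1744_747, in which the other highCHO fish lay above all noCHO fish too. All 8 passing sequences still passed without fish 38, when 18 of 339 sequences did.

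**Figure D5:**
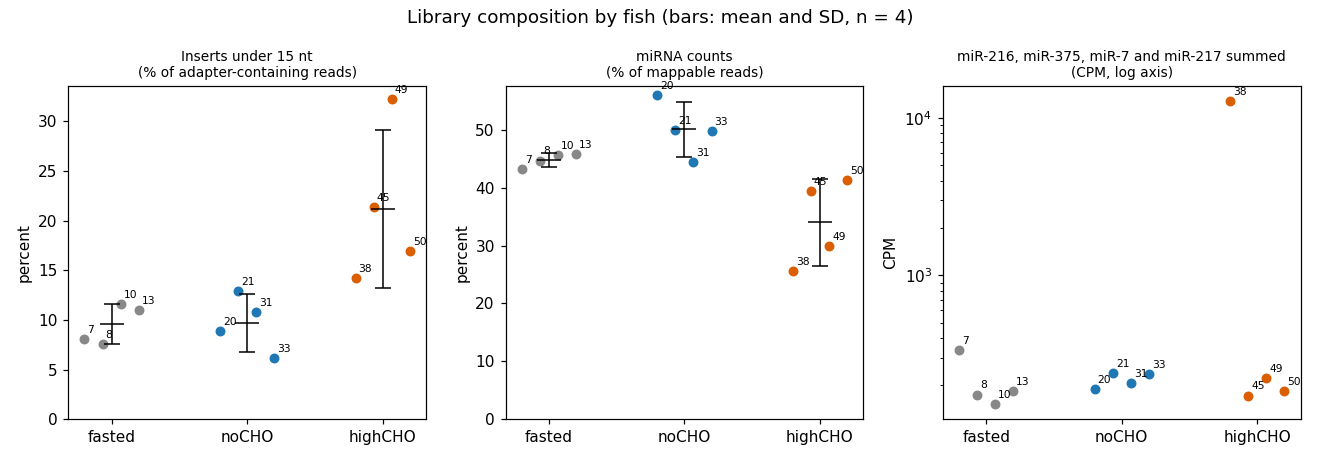
Inserts shorter than 15 nt as percent of reads with an adapter, miRNA counts as percent of mappable reads, and the summed CPM of the pancreas list (log axis), for each fish (points, with fish numbers), with mean and SD in the first 2 panels (n = 4). The highCHO fish lie above the noCHO fish in the first panel and below them in the second, and fish 38 stands alone at 12792 CPM in the third.

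The libraries of the 2 groups differed in composition. Of reads with an adapter, 9.70 ± 2.87% had inserts shorter than 15 nt in noCHO and 21.2 ± 7.94% in highCHO libraries (SD, n = 4), without overlap. miRNA made up 50.0 ± 4.71% and 34.01 ± 7.54% of mappable reads, candidates 0.205 ± 0.0463% and 0.385 ± 0.138% of miRNA counts, and sequences under 20 nt 0.127 ± 0.0454% and 0.275 ± 0.0760%. For these 4 of 10 measures the groups did not overlap, and the exact two-sided permutation p of every one was 0.0286, which is the lowest possible for 4 against 4 fish (0.0714 after adjustment). With the short-insert percentage as a covariate 1 sequence passed, PC-5p-1744_747, and none of the 8 did; their log2 fold changes were 1.38, 1.25, 1.28, 0.45, -0.64, -1.71, -0.77 and -0.59 in the order in which they are printed. The part of these composition differences in the calls was not tested. PC-5p-219_12291, itself under 20 nt, is one of the sequences summed in the last 2 measures. Its mean level was 466 CPM in noCHO and 1739 CPM in highCHO fish, and this rise is part of both differences. The last 2 measures are therefore not separate from its call, and they were not computed without it.

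The libraries also fell into 2 sets by the share of dre-let-7c-5p_1ss19GC among let-7a-like reads, a split known from earlier work on these data. The share was 0.942 to 1.42% in the fasted libraries and noCHO fish 20 and 21, and 3.32 to 3.81% in noCHO fish 31 and 33 and all highCHO fish. The candidate PC-5p-4045_211, which differs from dre-miR-122_R-1 by G2T and G3T, was listed at 0 in every library of the second set, and at 9.58 to 42.9 CPM in the first. The labels name no batch. Within the second set, 2 noCHO against 4 highCHO, the log2 fold changes of the 8 sequences were 1.63, 1.14, 1.42, 0.91, -1.05, -1.39, -1.18 and -0.76 in printed order, with the same signs, and none of 363 sequences passed (48 with an unadjusted p under 0.05, smallest edgeR adjusted p 0.184). With the set as a term in the fit of all 12 libraries, 18 sequences passed, 7 of the 8 among them. dre-miR-27b-3p_R-1 had an edgeR adjusted p of 0.0522. All fasted libraries are in the first set and all highCHO libraries in the second, so only the noCHO libraries inform this term. The contrast is then again highCHO against noCHO fish 31 and 33, and is not separate from that within the second set.

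Leaving out 1 refed library at a time, PC-5p-219_12291 and ssa-miR-145-3p_L+2R-1 passed in 8 of 8 fits, dre-miR-19c-3p_1ss23GT and fru-miR-200a_R-1 in 7, fru-miR-152 in 6, dre-miR-722_L-2 in 4, dre-miR-199-3p_L-1 in 2 (without noCHO fish 20 or highCHO fish 38) and dre-miR-27b-3p_R-1 in 1. Without noCHO fish 31 neither dre-miR-19c-3p_1ss23GT nor fru-miR-200a_R-1 passed. Without 1 library at a time the number passing ranged from 2 to 18. It was 5 without noCHO fish 21, 2 without noCHO fish 31 and 18 without highCHO fish 38. It was 22 with DESeq2, with all 8 among them, 3 with scaling to the sample total and 4 with the refed libraries alone. Of the 3 passing family sums, miR-152 and miR-722 passed in 3 of these 8 fits and miR-200 in 2; no family passed without noCHO fish 21, 31 or 33 or highCHO fish 45 or 49. All 8 sequences kept their sign in every alternative that gave a value. The labels do not say whether fish shared tanks, so the p-values measure the spread between these fish.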

How the data were processed

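Small RNA libraries of 12 livers, 1 per fish, were deposited as estimated counts per miRNA sequence in 1 table; 85.107% of these estimated counts deposited by the authors are whole, and the rule by which shared reads were divided is not given in the sources used here. Read counts by insert length and mapping class were also deposited by the authors as counts per library. Bowtie 1.1.1 is named without its role, per the submitters' processing notes; a genome build is not given in the sources used here. 4 blank lines were left out.

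Groups came from the labels. Estimated counts (197684 to 3057706 per library) were rounded. Sequences passing edgeR's filterByExpr (340, 99.87% of counts) were scaled by TMM and fitted over all 12 libraries with edgeR 4.0.16 (quasi-likelihood, R 4.3.3). The fit had 9 residual degrees of freedom and a common biological coefficient of variation of 0.411. The contrast was highCHO against noCHO, with Benjamini-Hochberg adjustment over 340 and a threshold of 0.05. The SE of edgeR values was derived from the log2 fold change and its F statistic. The 95% intervals use this SE and the 9 residual degrees of freedom, not those of the test, so an interval can include 0 at an unadjusted p under 0.05. Counts summed by family number (101 tested) were fitted alike. 10 composition measures were compared by two-sided exact permutation tests (scipy 1.17.1). The scripts were tested on simulated data. Alternatives changed the scaling, the filter, the test (DESeq2 1.42.0), the libraries and the covariates.

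Named sequences are those past the threshold, the smallest p filling each direction to 8 (predicted candidates only within the first 5 of a direction), the 2 most abundant of each of 19 lists and the 10 most abundant overall; 22 of the 71 named were chosen after their values were seen. Members, lists and alternatives were chosen with earlier results of these data known. Sequences were copied from the deposited table. Precision is limited by the 4 fish per group.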

Additional observations from a re-analysis of the deposited data

Results flagged for a closer look

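In 162 groups of 4 fish examined, 20 held a highest or lowest value whose gap to its nearest neighbour exceeded Dixon's 95% limit as a share of the group's range. Chance gives about 1 in 20 groups where groups are independent, normally distributed and not chosen by their values. Here 22 of the 71 named sequences were chosen after their values were seen, and some belong to one family. Among those 22 are ssa-miR-8159-5p_R-2, PC-5p-1744_747, dre-miR-216b and ssa-miR-200b-5p. The chance share therefore does not apply to the count of 20. highCHO fish 38 held 11 of the 20, each the highest of its group. They were ccr-miR-143 (26596 CPM), dre-miR-10b-5p_R-1 (1191 CPM), dre-miR-1 (159.5 CPM), fru-miR-200b_R+1 (1896 CPM), ssa-miR-216b-5p (8261 CPM), dre-miR-216b (1812 CPM), dre-miR-375 (2499.8 CPM), ipu-miR-192 (53161 CPM), ssa-miR-8159-5p_R-2 (12706 CPM), PC-5p-1744_747 (1102 CPM) and ssa-miR-200b-5p (42.7 CPM).

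highCHO fish 49, the shallowest library, stood apart with dre-miR-499-5p_R-1 high (234 CPM), ccr-miR-128 low (831 CPM) and 14.9% of adapter-containing reads over 32 nt. Among noCHO fish, fish 31 stood apart in 2 erythrocyte miRNAs, dre-miR-451_R-1 (2027 CPM) and fru-miR-144_L+1R-1 (1438 CPM). Fish 20 stood apart in ssa-miR-216b-5p (19.2 CPM) and dre-miR-216b (13.5 CPM). dre-miR-153a-3p stood apart in fish 33 (64.5 CPM) and ssa-miR-18a-5p_R-1 in fish 21 (25.2 CPM).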

How the results depend on the processing

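The 8 passing sequences kept their direction in every alternative that gave a value, and their number moved. The count of passing sequences, 8 (4 higher, 4 lower), became 3 (2 and 1) with sample-total scaling, 52 of 1576 (45 and 7) with no filter, 22 (13 and 9) with DESeq2, 4 (3 and 1) with the refed libraries only, 18 (7 and 11) with the library set as a term, 0 of 363 within the second set (48 with an unadjusted p under 0.05), 1 (1 and 0) with the share of short inserts as a covariate and 23 (18 and 5) without highCHO fish 38 and 49 together, an alternative chosen after seeing the data. It was 8 to 10 under median-ratio scaling, a mean count of at least 100, robust dispersion, names summed by mature form and known names only. Leaving out 1 refed library gave 2 to 18 (2 to 11 higher, 0 to 7 lower). Family sums past the threshold, 3, became 1 with sample-total scaling, 5 with DESeq2, 0 with the refed libraries only (13 with an unadjusted p under 0.05), 4 with the library set as a term, 0 with the short-insert term (19 with an unadjusted p under 0.05) and 0 to 5 without 1 library. The cause was not tested.

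Some log2 fold changes of sequences that did not pass turned in sign, none of them past the threshold in either fit. With DESeq2, it was so for dre-miR-27d_R-1_2ss11CT20TG (0.00877) and ssa-miR-19d-3p_R-1 (0.0334). With known names only, it was so for dre-miR-27d_R-1_2ss11CT20TG (0.014) and ssa-miR-19d-3p_R-1 (0.0307). With the library set as a term, it was so for ssa-miR-152-5p_L-1 (-0.201), ola-miR-145_L+1R+4 (-0.188), ssa-miR-19d-3p_R-1 (0.232) and dre-miR-499-5p_R-1 (0.261). At a mean count of at least 100, it was so for dre-miR-27d_R-1_2ss11CT20TG (0.00606) and ssa-miR-19d-3p_R-1 (0.0264). With median-ratio scaling, it was so for dre-miR-27d_R-1_2ss11CT20TG (0.00903) and ssa-miR-19d-3p_R-1 (0.0354). With the refed libraries only, it was so for ssa-miR-19d-3p_R-1 (0.0205). With sample-total scaling, it was so for dre-miR-27d_R-1_2ss11CT20TG (0.0409). With the share of short inserts as a covariate, it was so for ssa-miR-92b-3p (-0.127), ssa-miR-462a-5p (-0.0056), fru-let-7e (0.0185), dre-miR-153a-3p (0.0756), dre-miR-148_R-1 (0.35) and dre-miR-218a_R+1 (0.57). Within the second library set, it was so for ssa-miR-152-5p_L-1 (-0.178), ola-miR-145_L+1R+4 (-0.161), ssa-miR-19d-3p_R-1 (0.246) and dre-miR-499-5p_R-1 (0.264). Without highCHO fish 38 and 49 together, it was so for dre-miR-216b (-5.27), dre-miR-1 (-1.31), ola-miR-145_L+1R+4 (-0.651), dre-miR-375 (-0.0456), dre-miR-122_R-1 (0.0399), dre-miR-451_R-1 (0.1004), dre-miR-148_R-1 (0.17), dre-miR-30e-5p_R+2 (0.212) and ssa-miR-19d-3p_R-1 (0.282). Leaving out 1 refed library, values on both sides of 0 were found for dre-miR-148_R-1 (-0.54 to 0.0508), dre-miR-30e-5p_R+2 (-0.134 to 0.0553), dre-miR-100-5p (-0.0306 to 0.603), dre-miR-451_R-1 (-0.311 to 0.356), ssa-miR-462a-5p (-0.0155 to 0.38), dre-miR-499-5p_R-1 (-0.894 to 0.444), dre-miR-1 (-1.5 to 1.37), dre-miR-375 (-0.0206 to 3.74), dre-miR-218a_R+1 (-0.764 to 0.0577), dre-miR-153a-3p (-1.41 to 0.343), fru-miR-21 (-0.732 to 0.119), ipu-miR-192 (-0.0591 to 0.609), ola-miR-145_L+1R+4 (-0.46 to 0.269), dre-miR-27d_R-1_2ss11CT20TG (-0.179 to 0.138), ssa-miR-19d-3p_R-1 (-0.262 to 0.197) and dre-miR-216b (-0.416 to 8.88). Of the 10 composition measures, within the second set the difference turned for raw reads (-0.167 M reads, highCHO minus noCHO) and mean length (-0.00382 nt), and without 1 library the difference ran from -3.39 to 0.39 percentage points for the share of the 10 most abundant sequences and from -20.4 to 3.26 for adapter-containing reads. PC-5p-4045_211 could not be fitted with the set as a term.

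No paired analysis was possible because no fish number is shared between the groups. With 4 libraries a group and 197684 counts in the shallowest, low sequences there rest on few reads. DESeq2 left 140 of 340 adjusted p-values undefined.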
